A study of Mus musculus x Mus spretus with 8 samples.

Results

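The mouse mitochondrial chromosome encodes 37 genes, which carry symbols beginning with mt-: 13 for proteins of the respiratory chain and the ATP synthase, 2 for the RNAs of the mitochondrial ribosome and 22 for tRNAs. All 37 were found by their Ensembl identifiers among the 49670 genes of a count table made from 8 RNA-seq libraries of Patski cells, female hybrid fibroblasts of the cross C57BL/6 X SPRET/EiJ, in which one parent is Mus musculus and the other Mus spretus. They are all genes of that chromosome, and no measured value entered this rule, although earlier results of these data were known when it was set. The libraries form 4 groups of 2, all grown in DMEM with 10% FBS: wild type (WT) and lines labelled homozygous null for Stc1 (stc1 -/-), Pygo1 (pygo1 -/-) or Rlim (rlim -/-). Each null pair stands for 2 independent mutants, per the series' design text, and the origin of the WT pair is not stated, so p-values measure only the spread between these libraries. The comparisons ask how the RNA of each mitochondrial gene differed between the lines of each label and WT.

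Mitochondrial DNA is transcribed from both strands as long precursors, and tRNAs that lie between the other genes are cut out to free the mRNAs and rRNAs. Most genes are read from the heavy strand; the light strand gives mt-Nd6 and some of the tRNAs. Most of the messenger RNAs receive short poly-A tails after processing, which complete the stop codon where only its first base is encoded. The proteins are made on the mitochondrion's own ribosomes and join nuclear-encoded subunits, and in mammals the chromosome is inherited from the mother.

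The genes are packed closely, and this decides which counts can be read apart. On GRCm38 with the GENCODE M21 annotation they cover 15365 bases of the chromosome. Of 36 neighbouring pairs 9 overlap, 12 abut and 15 have a gap. The largest overlap is between mt-Atp8 and mt-Atp6, 2 subunits of the ATP synthase, which share 43 bases at chrM:7927-7969 on the plus strand. It is shown because reads over it belong to both genes; capitals mark the start codon of mt-Atp6 and the stop codon of mt-Atp8.
mt-Atp8/mt-Atp6: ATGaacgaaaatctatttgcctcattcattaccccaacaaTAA
mt-Nd4l and mt-Nd4, 2 complex I subunits, share 7 bases, in capitals within chrM:10147-10193, plus strand.
mt-Nd4l/mt-Nd4: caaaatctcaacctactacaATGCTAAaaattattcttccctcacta
Of the 13 protein genes, 3 have a length that is no multiple of 3 and end on the first base of a stop codon, while 8 end in TAA and 2 in TAG. The last 30 bases of these 3, and of mt-Co1 for comparison, show the sequence that is or is not complete before the tail is added. Capitals mark the encoded part of the stop codon. They lie on the plus strand at chrM:9361-9390, chrM:11515-11544, chrM:15259-15288 and chrM:6843-6872.
mt-Co3: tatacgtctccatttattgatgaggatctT
mt-Nd4: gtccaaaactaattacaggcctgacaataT
mt-Cytb: tcgaagacaaaatactaaaattatatccaT
mt-Co1: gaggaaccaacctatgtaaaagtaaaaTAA
All sequences shown are those of the GENCODE M21 transcripts on the C57BL/6 reference, not of reads.

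Total counts were 73128996 to 81500061 per library. The labels name a TruSeq RNA preparation from total RNA, and the series' text speaks of mRNA; that kit in its standard form selects polyadenylated RNA and keeps no strand, but selection, strand setting and the handling of reads with several matches are not given in the sources used here. Reads of overlapping genes, and of genes on opposite strands, therefore cannot be told apart. The targeted genes were not lower in both of their labelled libraries. Stc1 stood at 3.84 and 3.15 CPM in WT against 3.67 and 68.4 in its labelled libraries. Pygo1 stood at 2.49 and 2.44 against 2.50 and 0.674, and Rlim at 57.2 and 51.4 against 71.9 and 64.2. None was lower by the edgeR quasi-likelihood test (log2 3.37, -0.63 and 0.33, Benjamini-Hochberg adjusted p 0.236, 0.715 and 0.699), so the groups are named by their labels only. Of 12 fibroblast markers 5 had a median of at least 1 CPM, with Vim and Fn1 high and Col1a2, Col3a1 and Thy1 near 0. Their summed level was 3208 to 3237 CPM in WT, 4925 to 5619 in Stc1-labelled, 5126 to 5290 in Pygo1-labelled and 2502 to 2505 in Rlim-labelled libraries. Epithelial markers (5 of 8 at 1 CPM or more) summed to 490.1 to 739.1 CPM over all libraries, nearly all of it Lrp2 (480.4 to 714.5). Cdh1 stood at 9.60 and 8.72 CPM in WT and 19.9 and 6.38 in Stc1-labelled libraries. It stood at 0.202 and 0.336 in Pygo1-labelled and 0.510 and 0.523 in Rlim-labelled libraries. Every other epithelial marker was at 3.15 CPM or less. Endothelial markers (1 of 5, Cdh5) summed to 1.52 to 100.8 CPM, and leukocyte markers (1 of 6) to 1.89 to 7.72, with Cd3e at 0. The part of these marker levels in the results was not tested. In RNA from whole cultures, fewer mitochondria or cells and less RNA per mitochondrion cannot be told apart.

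The protein genes read from the heavy strand had some of the highest counts in these libraries. By median count over the libraries mt-Co1 ranked 1 of all genes, mt-Co2 2, mt-Atp6 3 and mt-Nd1 4. CPM are read counts relative to the library's TMM-scaled total, except for the cell type markers, where the total was not scaled. Divided by gene length in kb, CPM allow levels to be compared between genes. On that scale mt-Co2 had the highest median level, 16841 (range over the 8 libraries 12099 to 21925), followed by mt-Co1 with 12718 (8353 to 15196). mt-Atp6 had a median of 10270.0 (6597 to 13006), and mt-Nd5 was lowest of the 12 with 1067 (869 to 1618). The levels thus spanned 15.8-fold from mt-Co2 to mt-Nd5, genes that share a precursor. The ranges of mt-Co2 and mt-Co1 overlapped, as did those of mt-Nd4l (2162 to 3708), mt-Nd4 (1929 to 3471) and mt-Nd3 (1541 to 2783), but within each of the 8 libraries mt-Co2 stood above mt-Co1, and mt-Nd4l above mt-Nd4 and mt-Nd4 above mt-Nd3.

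The other members lay below all 12. Whether polyadenylated RNA was selected is not given, so the counts of these members, mt-Nd6 among them, need not follow the amounts of their RNAs in the cells. The rRNA genes had median levels of 190 (mt-Rnr1, range 140.0 to 297) and 108 (mt-Rnr2, 91.6 to 155) CPM per kb, and the median of mt-Co2 was 88.7-fold that of mt-Rnr1. mt-Nd6, the complex I subunit on the light strand, had 67.6 (45.04 to 112), a level 15.8-fold under its neighbour mt-Nd5. Among tRNA genes mt-Tw had 154 and mt-Tm 135 CPM per kb, and the lowest were at or near 0.

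**Figure D1:**
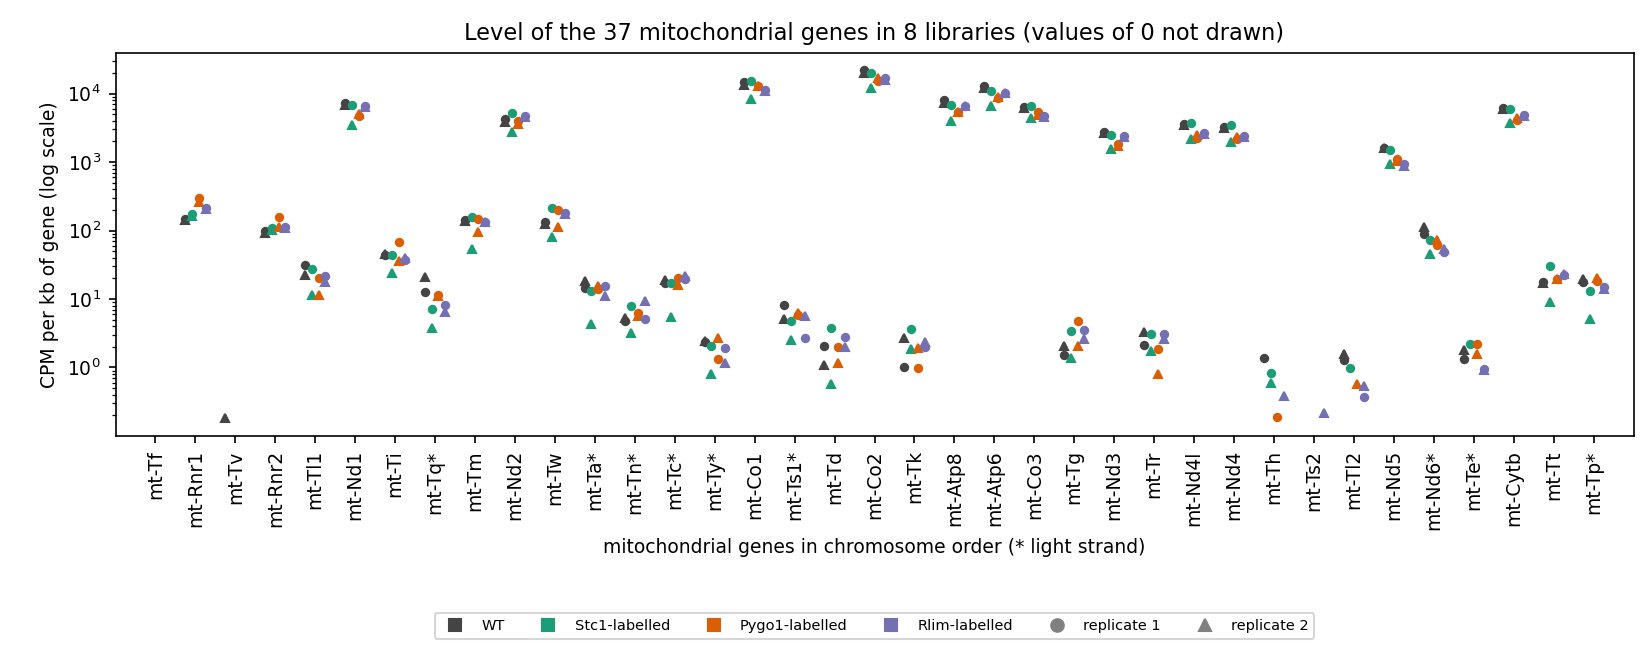
Level of each mitochondrial gene in CPM per kb on a log axis, in chromosome order, with 1 point per library (colour for the label, shape for the replicate, asterisk for light-strand genes). The 12 heavy-strand protein genes form the upper band, at 869 or more in every library, while the rRNA genes, mt-Nd6 and the tRNA genes lie at or below 297.

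As a whole, the mitochondrial genes held 8.18 and 7.44% of all counts in the WT libraries (mean 7.81 ± 0.52 SD, n = 2). In Stc1-labelled libraries they held 7.87 and 4.64% (6.25 ± 2.29), in Pygo1-labelled 6.18 and 6.12% (6.15 ± 0.0458) and in Rlim-labelled 6.67 and 6.37% (6.52 ± 0.206). Both WT libraries were above all Pygo1- and Rlim-labelled ones and overlapped with the Stc1-labelled pair. An exact permutation test over the 2520 ways to form 4 groups of 2 did not pass the threshold (p = 0.552, Benjamini-Hochberg adjusted p = 0.648 over 6 shares tested). The smallest p it can give is 0.009524, which for a single share becomes 0.0571 after adjustment. The exact permutation p of this share fell without either Stc1-labelled library and rose without any other library. Without Stc1-labelled replicate 1 that group is replicate 2 alone, which has no spread. The pair labelled Stc1 stood apart by its spread: all 13 protein genes were lower in replicate 2 than in replicate 1, by a median of 1.67-fold (log2 -0.95 to -0.58). In the WT, Pygo1- and Rlim-labelled pairs the median absolute log2 difference of these genes was 0.0908, 0.105 and 0.0407, against 0.744 in the Stc1-labelled pair. The spread of that pair was not confined to mitochondrial genes. Over all genes tested the same measure was 0.103, 0.200 and 0.0765 in the WT, Pygo1- and Rlim-labelled pairs, against 0.316 in the Stc1-labelled pair. In Stc1-labelled replicate 2, Stc1 itself was at 68.4 CPM and Cdh5 at its highest, 100.5 CPM. The other endothelial markers Pecam1, Kdr, Tek and Emcn were near 0 there (0.240, 0.0133, 0.0534 and 0.0267 CPM). The part of Stc1 and Cdh5 in the low mitochondrial counts was not tested.

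**Figure D2:**
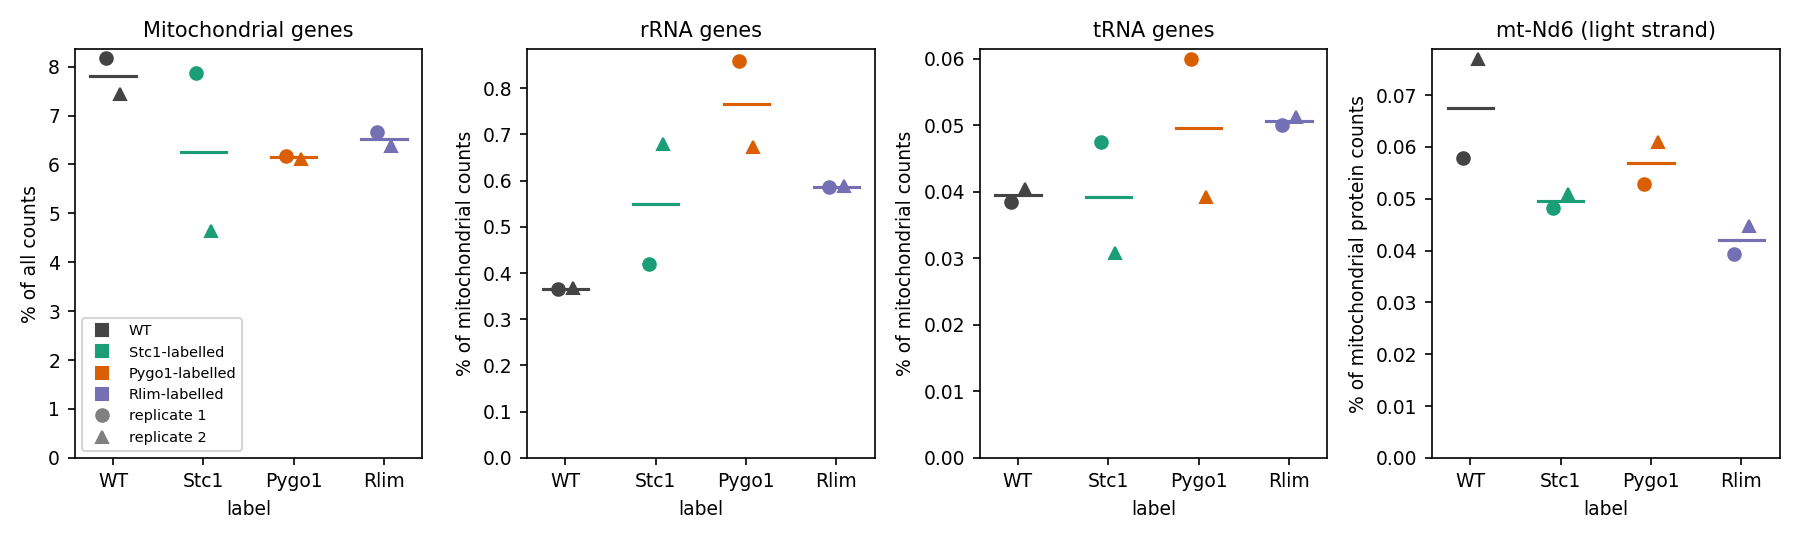
Share of mitochondrial genes in all counts, of rRNA and tRNA genes in mitochondrial counts, and of mt-Nd6 in mitochondrial protein counts, all in percent, with 1 point per library and a line at each group mean. The WT libraries have the lowest rRNA shares (0.366 and 0.367%), and Stc1-labelled replicate 2 has the lowest mitochondrial share (4.64%).

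mt-Rnr1, the 12S rRNA of the small ribosomal subunit, was the only one of the 32 members tested that differed past the threshold between a labelled group and WT. It rose in the Pygo1-labelled libraries. The rRNA genes matter here because their RNA forms the core of the mitochondrial ribosome. The last 80 bases of mt-Rnr1, chrM:945-1024 on the plus strand, are shown to identify the gene; capitals mark a stretch that small-subunit rRNA genes share from bacteria to mitochondria.
mt-Rnr1: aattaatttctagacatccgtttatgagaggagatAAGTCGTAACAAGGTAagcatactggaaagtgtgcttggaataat
mt-Rnr1 stood at 140.1 and 133.7 CPM in WT, 164.7 and 155.1 in Stc1-labelled, 283.4 and 245.1 in Pygo1-labelled and 206.0 and 198.1 in Rlim-labelled libraries. The order WT, Stc1, Rlim, Pygo1 held without overlap between any of the groups. Above WT without overlap were 22.2% of all genes for Stc1, 29.6% for Pygo1 and 35.7% for Rlim. The share of genes with all 4 groups apart was not counted. Behind these values stood raw counts of 10755 and 10672 for WT, and of 22514 and 17811 for the Pygo1-labelled pair. The edgeR quasi-likelihood test gave a log2 change of 0.95 ± 0.12 (SE) for Pygo1-labelled against WT, 1.93-fold (adjusted p = 0.0171), in a comparison in which 2.35% of the 17839 genes tested were called. For Rlim-labelled libraries it gave 0.56 ± 0.12 (adjusted p = 0.0759) and for Stc1-labelled libraries 0.22 ± 0.12 (adjusted p = 0.401). The test for any difference among the 4 groups also called mt-Rnr1 (adjusted p = 0.0273), where 3.14% of genes were called.

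The Pygo1 call on mt-Rnr1 depended on which libraries entered the fit. By edgeR it was lost without WT replicate 1 (adjusted p = 0.238), WT replicate 2 (0.271), Rlim-labelled replicate 1 (0.0822) or replicate 2 (0.0833), with log2 changes between 0.92 and 0.99, and it stayed without Pygo1-labelled replicate 1 (0.0425) or replicate 2 (0.0301). In the leave-one-out fits that lost the call, far fewer genes were called for Pygo1 over all genes too. Scaled to mitochondrial counts alone, the change was 1.29 with an adjusted p of 0.0785 by edgeR (1.1% of all genes called).

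mt-Rnr2, the 16S rRNA of the large subunit, differed from WT by smaller steps. It stood at 156.6 and 145.0 CPM in WT and at 170.3 and 159.4 in Stc1-labelled, 246.0 and 176.5 in Pygo1-labelled and 175.5 and 170.5 in Rlim-labelled libraries. Every labelled library was above both WT libraries, as were 22.2, 29.6 and 35.7% of all genes for Stc1, Pygo1 and Rlim. No comparison passed the edgeR test (log2 0.13, 0.49 and 0.20 for Stc1, Pygo1 and Rlim, adjusted p 0.743, 0.168 and 0.584). Per length, mt-Rnr1 was at 1.48 and 1.53 times mt-Rnr2 in WT, 1.60 and 1.61 times in Stc1-labelled, 1.91 and 2.30 times in Pygo1-labelled and 1.94 and 1.93 times in Rlim-labelled libraries. The WT pair had the lowest ratios.

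Set against the other mitochondrial RNAs, both rRNAs together took 0.366 and 0.367% of mitochondrial counts in WT. They took 0.420 and 0.680% in Stc1-labelled, 0.860 and 0.674% in Pygo1-labelled and 0.586 and 0.588% in Rlim-labelled libraries. All 6 labelled libraries were above WT, and the exact permutation test over the 4 groups gave p = 0.143 (adjusted p = 0.286). This p was lower without either Stc1-labelled library or Pygo1-labelled replicate 2, and higher without any other library. It was lowest without Stc1-labelled replicate 2, the library with the fewest mitochondrial counts.

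No protein gene passed the edgeR test, although the log2 changes against WT were negative for all 13 in all comparisons with 1 exception, mt-Nd2 in Rlim-labelled libraries. Scaled to mitochondrial counts alone, of which protein genes are over 99% in every library, the 13 changes centre near 0 by construction, and 7, 10 and 8 were negative for Stc1, Pygo1 and Rlim (medians -0.07, -0.17 and -0.04). With TMM scaling, the median log2 change of the 13 was -0.39 for Stc1, -0.51 for Pygo1 and -0.34 for Rlim, where the median over all genes tested was 0.01, 0.00 and 0.01. For Stc1-labelled libraries all 13 changes were negative, 7 genes were below both WT libraries without overlap (22.2% of all genes were) and 6 overlapped. For Pygo1-labelled libraries all 13 were negative and 12 lay below WT without overlap (31% of all genes did). For Rlim-labelled libraries 12 of 13 were negative and lay below WT without overlap (35.6% of all genes did), and mt-Nd2 lay above. These genes share precursors and libraries, and the 3 comparisons share the WT pair, so these counts are not independent of each other.

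Over all 32 members tested, 0 were called in Stc1-labelled libraries, where 0.577% of genes were called, 0.286% as higher and 0.291% as lower. At an unadjusted p under 0.05 stood 3 of them (16% of genes), and DESeq2 called 1, mt-Tq (5.36% of genes). In Pygo1-labelled libraries 1 was called, as higher (1.54% of genes were called higher and 0.807% lower), and 6 had an unadjusted p under 0.05 (20.6% of genes). In Rlim-labelled libraries 0 were called, where 1.4% of genes were, 0.785% as higher and 0.617% as lower. There 4 had an unadjusted p under 0.05 (17.9% of genes), and DESeq2 called 3: mt-Rnr1 as higher, mt-Nd5 and mt-Nd6 as lower (7.89% of genes in either direction). Without overlap with WT, 2 members were higher and 13 lower for Stc1 (22.2% of genes each way), 4 and 15 for Pygo1 (29.6 and 31%) and 7 and 19 for Rlim (35.7 and 35.6%).

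All groups share 1 estimate of spread in this fit, and the Stc1-labelled pair had the widest. Without Stc1-labelled replicate 1 edgeR called 12 members for Pygo1 (19.7% of all genes were then called): mt-Rnr1 as higher and 11 protein genes, all but mt-Nd2 and mt-Co1, as lower. For Rlim it called 10 (16.3% of all genes): mt-Rnr1 as higher, and mt-Tq, mt-Co1, mt-Co2, mt-Co3, mt-Nd4l, mt-Nd4, mt-Nd5, mt-Nd6 and mt-Cytb as lower. The same 12 and 10 genes were called without Stc1-labelled replicate 2. For Stc1 itself, 20 members were called as lower without replicate 1 (24.0% of all genes called), where the libraries labelled Stc1 are replicate 2 alone and that library is assumed to vary like the other groups. Without replicate 2, 0 were called (6.51% of all genes), 5 had an unadjusted p under 0.05, and the median log2 change of the protein genes was -0.08.

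**Figure D3:**
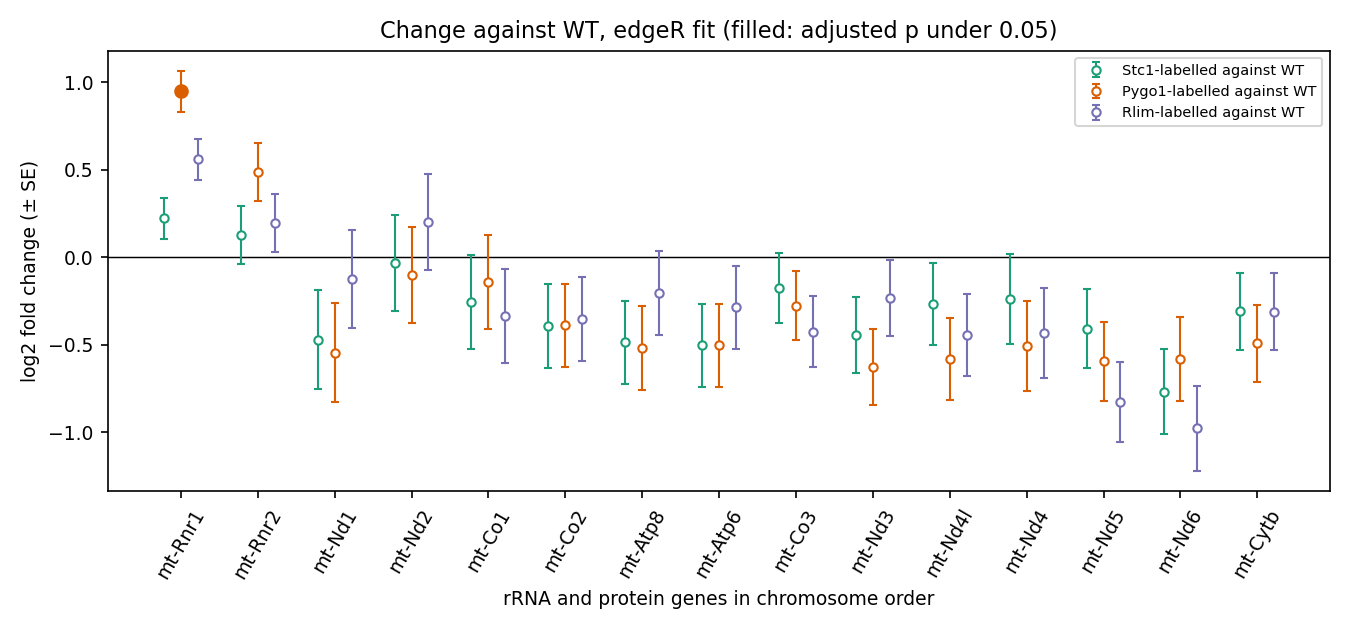
Log2 fold change against WT with its standard error for the rRNA and protein genes in chromosome order, from the edgeR fit over all 8 libraries (colour for the label, filled where the adjusted p is under 0.05). Only mt-Rnr1 in Pygo1-labelled libraries (0.95) is filled, and the protein genes lie at or below 0 except mt-Nd2 in Rlim-labelled libraries (0.20).

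Complex IV, cytochrome c oxidase, passes electrons to oxygen, and mt-Co1, mt-Co2 and mt-Co3 encode its core. mt-Co1, the catalytic subunit, stood at 22467 and 20906 CPM in WT, 23478 and 12906 in Stc1-labelled, 19634 and 19666 in Pygo1-labelled and 17612 and 16720.0 in Rlim-labelled libraries. Its log2 changes were -0.25, -0.14 and -0.34 for Stc1, Pygo1 and Rlim, each within 2 standard errors of 0 (adjusted p 0.687, 0.804 and 0.565, edgeR).
mt-Co2, which takes up electrons from cytochrome c, stood at 14997 and 13815 CPM in WT, 13669 and 8276 in Stc1-labelled, 10565 and 11440.1 in Pygo1-labelled and 11599 and 10949 in Rlim-labelled libraries. mt-Co3 stood at 4917 and 4758 in WT, 5136 and 3428 in Stc1-labelled, 4158 and 3837 in Pygo1-labelled and 3657 and 3555 in Rlim-labelled libraries. For both genes the WT pair was above every Pygo1- and Rlim-labelled library, and for mt-Co2 above the Stc1-labelled pair too.

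In the ATP synthase, mt-Atp6, part of the proton channel, stood at 8857 and 8175 CPM in WT, 7522 and 4492 in Stc1-labelled, 5875 and 6149.6 in Pygo1-labelled and 7045 and 6943 in Rlim-labelled libraries. mt-Atp8 stood at 1651 and 1471 in WT, 1407 and 821 in Stc1-labelled, 1098 and 1081 in Pygo1-labelled and 1359.8 and 1353 in Rlim-labelled libraries. WT was highest for both genes without overlap. The log2 changes for Stc1, Pygo1 and Rlim were -0.50, -0.50 and -0.28 for mt-Atp6 (adjusted p 0.356, 0.286 and 0.584, edgeR) and -0.49, -0.52 and -0.20 for mt-Atp8 (0.376, 0.276 and 0.713). The pair, which shares the 43 bases printed above, kept a nearly fixed ratio: mt-Atp8 had 0.587 to 0.651 times the level of mt-Atp6 per length in all 8 libraries.

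mt-Cytb, the subunit of complex III that holds the quinone-binding sites, stood at 7043 and 6704 CPM in WT, 6815 and 4279 in Stc1-labelled, 4711 and 5067 in Pygo1-labelled and 5648 and 5429 in Rlim-labelled libraries. Only Stc1-labelled replicate 1 reached the WT range. Its log2 changes were -0.31, -0.49 and -0.31 (adjusted p 0.536, 0.266 and 0.515, edgeR).

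Complex I, the NADH dehydrogenase, has 7 mitochondrially encoded subunits, which sit in its membrane arm. mt-Nd1, at the foot of the arm near the quinone site, stood at 6975 and 6549.6 CPM in WT, 6425 and 3335 in Stc1-labelled, 4508 and 4763 in Pygo1-labelled and 6241 and 6168 in Rlim-labelled libraries. mt-Nd2 stood at 4364 and 4047 in WT, 5363 and 2863 in Stc1-labelled, 4115 and 3719 in Pygo1-labelled and 4882 and 4797 in Rlim-labelled libraries. It was the sole protein gene above WT without overlap in any comparison (Rlim, log2 0.20 ± 0.27, adjusted p = 0.754, edgeR; 35.7% of all genes were higher without overlap).
mt-Nd3 stood at 968 and 939 CPM in WT, 865 and 536 in Stc1-labelled, 643 and 593 in Pygo1-labelled and 825 and 799 in Rlim-labelled libraries. The WT pair was highest, and its Pygo1 change was -0.63 ± 0.22 (adjusted p = 0.171, edgeR). mt-Nd4l stood at 1061 and 1038 in WT, 1101 and 642 in Stc1-labelled, 676 and 726 in Pygo1-labelled and 781 and 762 in Rlim-labelled libraries. mt-Nd4, with which it shares an mRNA, stood at 4459 and 4317 in WT, 4783 and 2659 in Stc1-labelled, 2978 and 3204 in Pygo1-labelled and 3272 and 3225 in Rlim-labelled libraries. For both genes only Stc1-labelled replicate 1 exceeded WT, and mt-Nd4l kept 1.05 to 1.12 times the level of mt-Nd4 per length.
mt-Nd5, the pump subunit farthest along the arm, stood at 2952 and 2924 CPM in WT, 2748 and 1681 in Stc1-labelled, 2026 and 1868 in Pygo1-labelled and 1729.7 and 1585 in Rlim-labelled libraries. It was lower than WT in every labelled library. Its log2 changes were -0.41, -0.59 and -0.83 for Stc1, Pygo1 and Rlim (adjusted p 0.426, 0.206 and 0.130, edgeR).

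mt-Nd6 is the single protein gene of the light strand, and its end overlaps that of mt-Nd5 by 14 bases, so its counts may hold reads of its neighbour. It stood at 46.8 and 58.3 CPM in WT, 38.3 and 23.4 in Stc1-labelled, 32.3 and 37.9 in Pygo1-labelled and 25.4 and 27.9 in Rlim-labelled libraries. Both WT libraries were above all others. Its log2 changes were -0.77 ± 0.24, -0.58 ± 0.24 and -0.98 ± 0.24 for Stc1, Pygo1 and Rlim (adjusted p 0.208, 0.237 and 0.107, edgeR), and without the filter on low counts the Rlim change was called. mt-Nd6 took 0.0579 and 0.0770% of mitochondrial protein counts in WT, and 0.0482 and 0.0509% in Stc1-labelled libraries. It took 0.0529 and 0.0610% in Pygo1-labelled and 0.0393 and 0.0448% in Rlim-labelled libraries. The exact permutation test of this share over the 4 groups gave p = 0.0667 (adjusted p = 0.2). Per length it had 0.0489 to 0.0714 times the level of mt-Nd5.

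The make-up of the protein counts of each library varied more for some genes than for others. mt-Co2 held 17.2 to 18.6% in all 8 libraries, whereas mt-Nd6 varied 1.96-fold, mt-Nd5 1.52-fold and mt-Nd2 1.44-fold between the lowest and highest library. mt-Nd2 held 5.40 and 5.35% in WT, 6.76 and 6.23% in Stc1-labelled, 6.74 and 5.98% in Pygo1-labelled and 7.55 and 7.70% in Rlim-labelled libraries. It was thus lowest in WT and highest in Rlim-labelled libraries. mt-Nd5 held 3.65 and 3.86% in WT, 3.46 and 3.66% in Stc1-labelled, 3.32 and 3.01% in Pygo1-labelled and 2.67 and 2.54% in Rlim-labelled libraries. mt-Nd1 held 8.64 and 8.65% in WT, 8.10 and 7.26% in Stc1-labelled, 7.39 and 7.66% in Pygo1-labelled and 9.65 and 9.90% in Rlim-labelled libraries, so the Rlim-labelled pair lay above WT and the other labels below. mt-Co1 held 27.8 and 27.6% in WT and 32.2 and 31.6% in Pygo1-labelled libraries, the highest values of that gene. By complex, complex IV held 50.1 to 56.3% (highest in Pygo1-labelled, lowest in Rlim-labelled libraries) and complex I 23.99 to 27.9% (the reverse order). The ATP synthase held 11.3 to 13.3% and complex III 7.72 to 9.31%. Shares of a whole move against each other, and of these only that of mt-Nd6 was tested.

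**Figure D4:**
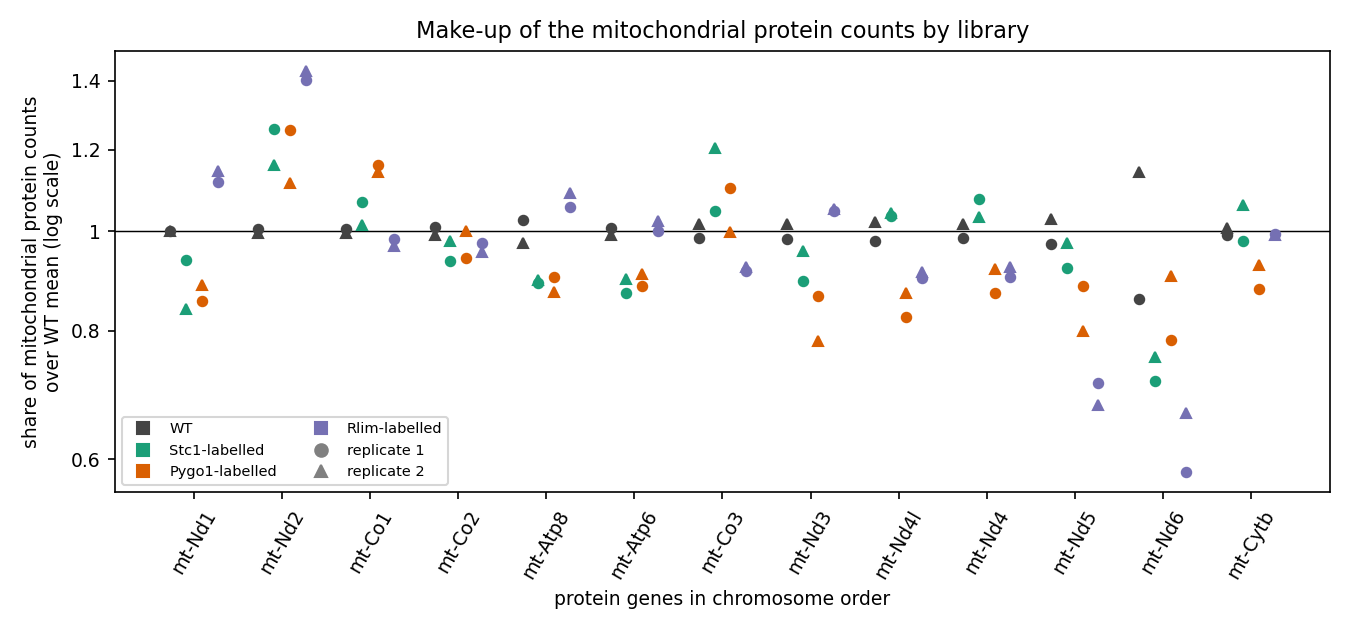
Share of each protein gene in the mitochondrial protein counts of a library, divided by the mean share of the 2 WT libraries, on a log axis (1 point per library, colour for the label, shape for the replicate). mt-Nd2 lies above WT in all labelled libraries, with Rlim-labelled libraries highest (7.55 and 7.70% of the protein counts), while mt-Nd5 and mt-Nd6 are lowest in Rlim-labelled libraries.

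The tRNA genes had few counts, 1072 to 2933 per library in all, or 0.0308 to 0.0599% of mitochondrial counts. The exact permutation test over the 4 groups did not pass for this share (p = 0.619, adjusted p = 0.648). mt-Tw (tryptophan) and mt-Tm (methionine) held 57.3 to 66.3% of them. They flank mt-Nd2, which is why they are shown: mt-Tm, chrM:3845-3913, abuts its start, and mt-Tw, chrM:4950-5016, shares the 2 bases in capitals with its end, both on the plus strand.
mt-Tm: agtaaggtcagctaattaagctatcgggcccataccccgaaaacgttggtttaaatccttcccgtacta
mt-Tw: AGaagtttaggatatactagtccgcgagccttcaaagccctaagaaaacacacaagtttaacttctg
mt-Tw stood at 8.82 and 8.27 CPM in WT, 14.1 and 5.35 in Stc1-labelled, 13.2 and 7.56 in Pygo1-labelled and 12.2 and 11.8 in Rlim-labelled libraries. mt-Tm stood at 9.66 and 9.52 in WT, 11.03 and 3.69 in Stc1-labelled, 10.07 and 6.52 in Pygo1-labelled and 9.16 and 9.12 in Rlim-labelled libraries. The Stc1- and Pygo1-labelled pairs straddled WT for both, and neither gene passed the edgeR test.

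Whether a read came from a mature tRNA or from a neighbouring or unprocessed RNA cannot be told from the counts. The tRNA genes beside a protein gene on the heavy strand (11) had median counts of 1.5 to 796.5, the 8 on the light strand 7.5 to 92.5, and the 3 heavy-strand ones with no protein gene beside them (mt-Tf, mt-Tv and mt-Ts2) a median of 0. mt-Tf had 0 counts in all 8 libraries.
mt-Ti (isoleucine) stood at 3.06 and 3.08 CPM in WT, 3.02 and 1.65 in Stc1-labelled, 4.73 and 2.46 in Pygo1-labelled and 2.60 and 2.78 in Rlim-labelled libraries. mt-Tl1 (leucine) stood at 2.38 and 1.67 in WT, 2.02 and 0.852 in Stc1-labelled, 1.498 and 0.853 in Pygo1-labelled and 1.60 and 1.35 in Rlim-labelled libraries. mt-Tt (threonine) stood at 1.19 and 1.14 in WT, 2.06 and 0.599 in Stc1-labelled, 1.33 and 1.32 in Pygo1-labelled and 1.52 and 1.57 in Rlim-labelled libraries.
Of these, mt-Tl1 was below WT without overlap in Pygo1- and Rlim-labelled libraries, and mt-Ti in Stc1- and Rlim-labelled ones. Of all genes, 22.2% (Stc1), 31% (Pygo1) and 35.6% (Rlim) were below WT in that way. mt-Tt was above WT without overlap in Pygo1- and Rlim-labelled libraries (29.6 and 35.7% of all genes). None of them passed the edgeR test. Of the 22 tRNA genes 17 had enough counts to be tested, and mt-Tf, mt-Tv, mt-Th, mt-Ts2 and mt-Tl2 had not. The largest change among the 17 was that of mt-Tq (glutamine, light strand), named after its values were seen. It stood at 0.886 and 1.47 CPM in WT, 0.499 and 0.266 in Stc1-labelled, 0.805 and 0.798 in Pygo1-labelled and 0.577 and 0.463 in Rlim-labelled libraries. Both WT libraries were above all others, and the log2 changes were -1.62 ± 0.41, -0.55 ± 0.39 and -1.18 ± 0.40 (adjusted p 0.153, 0.472 and 0.193, edgeR).

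Pieces of the mitochondrial chromosome that were copied into nuclear chromosomes can take its reads. Among annotated transcripts 11 nuclear pseudogenes matched a member over at least 100 bases at 95% identity or more. The highest was Gm29216 on chromosome 1 (24615706 to 24616197, minus strand), with 483 bases 99.8% identical to mt-Co1 and a median of 645 counts, 0.0432% of those of mt-Co1. Gm13340 on chromosome 2, 97.6% identical to all of mt-Co1, had a median of 349 counts. Gm10925 and Gm28437 on chromosome 1, identical to mt-Atp6 over 678 bases and to mt-Co3 over 783, had 333.5 and 259.5. At 99% identity or more, the copies covered 99.6% of mt-Co2 and mt-Atp6, 99.9% of mt-Co3, 99.1% of mt-Nd3, 98.99% of mt-Nd4l, 63.6% of mt-Nd4 and 31.3% of mt-Co1. Levels of these 7 genes are uncertain to the extent that such reads were dropped or shared out. Adding the copies' counts to their members changed no call, but no copy had more than 0.0866% of its member's median count. Reads that were dropped are in neither count, so this cannot show their effect.

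The columns that assign reads to a parental genome held almost no mitochondrial reads. Of the mitochondrial counts, 0.0592 and 0.0682% carried a genome in WT and 0.0846 and 0.0465% in Stc1-labelled libraries. The values were 0.103 and 0.0386% in Pygo1-labelled and 0.105 and 0.0904% in Rlim-labelled libraries, against 54.8 to 56.1% of nuclear counts. By gene, summed over libraries, the protein genes ranged from 0.0565% (mt-Atp8) to 0.122% (mt-Nd6). Of 8196 nuclear genes with a median of at least 1000 counts, the median was 58.5%, and 72 (0.878%) were at or below 0.122%.
Neither genome dominated among the few reads assigned. Genome 2, whose parent is not named in the labels, took 49.7 and 48.5% in WT, 51.5 and 50.4% in Stc1-labelled, 43.3 and 45.6% in Pygo1-labelled and 48.8 and 49.3% in Rlim-labelled libraries. The interval for Pygo1-labelled replicate 1 was 41.9 to 44.7% (95% Wilson, counting error only). The Pygo1-labelled pair was below all others, and the exact permutation test gave p = 0.0286 (adjusted p = 0.171). The nuclear reads had their lowest genome 2 share in the same pair, with 47.0 and 46.6% in the Pygo1-labelled pair and 50.7 to 51.6% elsewhere. The rRNA genes departed most among members with over 100 such reads, with 87 reads of genome 1 and 51 of genome 2 for mt-Rnr1 (37.0%) and 39 and 62 for mt-Rnr2 (61.4%). Protein genes ran from 43.9% (mt-Nd3) to 51.9% (mt-Nd6). A chromosome inherited from the mother alone would give 1 genome only, and no member with over 100 reads came near that; these columns therefore do not tell which parent's mitochondrial chromosome the cells carry.

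**Figure D5:**
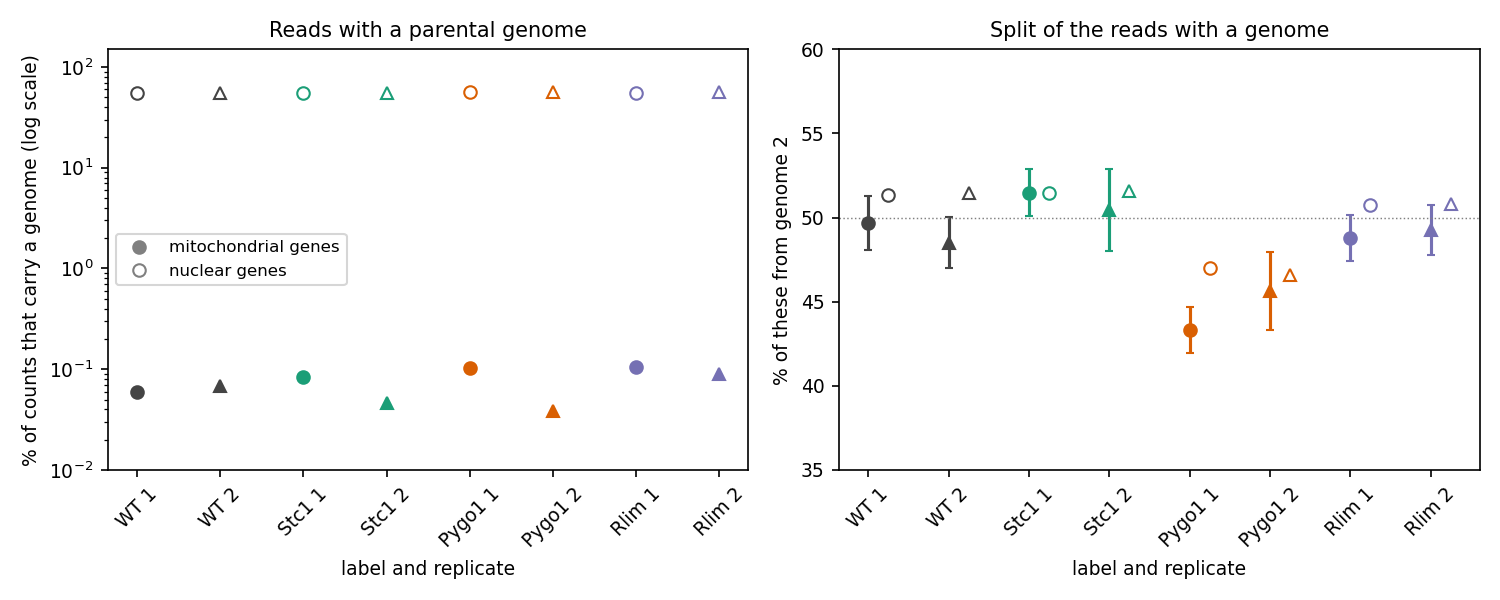
Left: percent of mitochondrial (filled) and nuclear (open) counts that carry a parental genome in each library, log axis. Right: percent of those reads from genome 2, with 95% Wilson intervals for the mitochondrial ones, on an axis from 35 to 60. The mitochondrial values (43.3 to 51.5%) lie below the nuclear ones (46.6 to 51.6%) in every library but Stc1-labelled replicate 1. The nuclear value lies above the interval in the WT and Rlim-labelled pairs and in Pygo1-labelled replicate 1.

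Nuclear genes that make, process and translate mitochondrial RNA complete this system. The 9 lists used here hold these and also genes of mtDNA replication, protein folding and stress, and mitochondrial biogenesis, the last with the carrier Ucp2. Of their 205 genes 201 were tested. edgeR called 0 in Stc1-labelled libraries (0.577% of all genes called), 1 in Pygo1-labelled (2.35%) and 2 in Rlim-labelled ones (1.4%). Ucp2 was the Pygo1 call and 1 of the 2 Rlim calls. At an unadjusted p under 0.05 stood 25, 30 and 33 (16, 20.6 and 17.9% of all genes), and DESeq2 called 11, 7 and 11 (5.36, 9.46 and 7.89% of all genes). The lists of mtDNA transcription (12 tested), RNA processing and modification (21), RNA stability and decay (17), mtDNA replication and maintenance (19), translation factors and insertion (14) and protein folding and stress (11) had no member called by edgeR. In each of them 0 to 3 genes had an unadjusted p under 0.05 and DESeq2 called 0 or 1, in each comparison, and their median log2 changes lay between -0.16 and 0.10.

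The 78 mitochondrial ribosomal proteins tested, partners of the rRNAs, had no member called by edgeR either. At an unadjusted p under 0.05 stood 12, 15 and 13 for Stc1, Pygo1 and Rlim, where 16, 20.6 and 17.9% of all genes did. DESeq2 called 6, 3 and 5, all as lower, where it called 5.36, 9.46 and 7.89% of all genes in either direction. Their median log2 change was -0.13, -0.17 and -0.22. Below WT without overlap were 27, 43 and 52 genes (22.2, 31 and 35.6% of all genes), and above it 6, 8 and 8 (22.2, 29.6 and 35.7%).

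Aars2, which charges the mitochondrial alanine tRNA, was the single gene called by edgeR among 22 mitochondrial aminoacyl-tRNA synthetases. It stood at 39.9 and 43.0 CPM in WT, 54.5 and 61.6 in Stc1-labelled, 49.7 and 44.1 in Pygo1-labelled and 67.0 and 71.5 in Rlim-labelled libraries. The Rlim-labelled pair was highest, and there it rose by 0.74 ± 0.12 on the log2 scale, 1.67-fold (adjusted p = 0.0461, edgeR). The call was lost without either WT library (0.399 and 0.388), either Rlim-labelled library (0.400 and 0.450) or either Pygo1-labelled library (0.0552 and 0.0543), scaled to mitochondrial counts (0.235) and with a term for the replicate number (0.0902). Its log2 change was 0.70 to 0.80 in those leave-one-out fits, 1.04 scaled to mitochondrial counts and 0.74 with the replicate term. In these fits fewer genes were called for Rlim over all genes too, except in those without a Pygo1-labelled library. Its tRNA, mt-Ta, stood at 1.00 and 1.27 CPM in WT and 1.06 and 0.758 in Rlim-labelled libraries, which overlap.

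Ucp2, a carrier of the inner membrane in the uncoupling protein family, was the single called gene in the list of 10 biogenesis regulators. It stood at 90.5 and 96.1 CPM in WT, 84.4 and 111.7 in Stc1-labelled, 20.6 and 19.0 in Pygo1-labelled and 41.0 and 41.9 in Rlim-labelled libraries. Both of the latter pairs lay below WT and the Stc1-labelled pair without overlap. It fell by 2.24 ± 0.16 on the log2 scale in Pygo1-labelled libraries, 4.71-fold (adjusted p = 0.00239, edgeR), and by 1.17 ± 0.15, 2.25-fold, in Rlim-labelled ones (adjusted p = 0.0261). In edgeR the Pygo1 call was lost without WT replicate 1 (log2 -2.27, adjusted p 0.0557) or 2 (-2.19, 0.0584) and scaled to mitochondrial counts (-1.90, 0.0584). The Rlim call was lost without WT replicate 1 or 2 (log2 -1.21 and -1.12, adjusted p 0.291 and 0.323) or Rlim-labelled replicate 1 or 2 (-1.15 and -1.18, 0.345 and 0.336). It was also lost scaled to mitochondrial counts (-0.88, 0.358) and with a term for the replicate number (-1.17, 0.0672). In every fit that lost a Ucp2 call, fewer genes were called over all genes in that comparison too. Ucp2 encodes a transporter, and the transcriptional regulators of that list had no called member.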

How the data were processed

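RNA-seq counts of 8 Patski libraries were used. The authors deposited raw counts per Ensembl gene, with columns for all reads, genome 1 and genome 2 in each library. HISAT2 2.0.5, featureCounts, Cufflinks and the build mm10 are named per the submitters' processing notes, with no role given. Annotation, strand setting, multimapping and the genome split are not given in the sources used here. GENCODE release M21 (GRCm38) gave symbols and positions for 49411 of 49670 genes; the remaining 259 took no more than 0.0139% of any library. The depth was 73128996 to 81500061 counts per library.

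Counts were fitted with edgeR 4.0.16 (R 4.3.3; TMM, filterByExpr, quasi-likelihood, 1 mean per group over all 8 libraries). The filter kept 17839 genes, and genes with a Benjamini-Hochberg adjusted p under 0.05 over them were called. DESeq2 1.42.0, other scalings and filters, only the groups compared, a replicate term and each library left out were alternatives. Groups "without overlap" had both libraries on 1 side of both WT libraries. Shares were tested by exact permutation over all 4 groups, and shares of counts carry Wilson intervals at 95%. Nuclear copies were matched on transcripts with blastn 2.17.0, chosen after the files were seen, since no genome sequence was used here, and counting the nuclear lists under each alternative was added then too. The script was tested on simulated data. Values in every library are given for all protein and rRNA members, for called members and for tRNAs with a median of at least 100 counts; of the nuclear lists up to 4 called genes, and of the copies the 4 with the highest median. The members and lists were chosen with earlier results of these data known. Figures were drawn with matplotlib 3.10.9.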

Additional observations from a re-analysis of the deposited data

How the results depend on the processing

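Of 32 members, 0, 1 and 0 were called for Stc1, Pygo1 and Rlim and 1 for any difference. DESeq2 called 1 for Stc1 (5.36% of all genes), 3 for Rlim (7.89%) and 3 for any difference (17.6%). With only 1 label and WT in the fit, 9 were called for Pygo1 (9.97% of all genes) and 18 for Rlim (48.9%), and without the filter 1 for Rlim (2.08%). Scaled to mitochondrial counts, 0 were called for Pygo1 and 0 for any difference, and the median log2 change of all genes moved to 0.43, 0.34 and 0.30. In fits with a library left out, most members were called without a Stc1-labelled library, where far more of all genes were called too. Leaving out each library gave 0 to 20 calls for Stc1, 0 to 12 for Pygo1, 0 to 10 for Rlim and 0 to 20 for any difference. The log2 change of mt-Tt for Stc1 (0.19) ran from -0.96 without Stc1-labelled replicate 1, where it was called, to 0.82 without replicate 2.

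Of the 201 genes tested from the nuclear lists, 0, 1 and 2 were called (0.577, 2.35 and 1.4% of all genes). DESeq2 called 11, 7 and 11 (5.36, 9.46 and 7.89% of all genes). The fits of 1 label and WT called 10 for Pygo1 (9.97% of all genes) and 109 for Rlim (48.9%). Without the filter 1 was called for Stc1 (1.23%). Scaled to mitochondrial counts 0 were called for Pygo1 (1.1%) and 0 for Rlim (0.538%). With a library left out, the counts were highest without a Stc1-labelled library, where far more of all genes were called too. Leaving out each library gave 0 to 57 calls for Stc1, 0 to 33 for Pygo1 and 0 to 31 for Rlim.

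With the replicate number as a block, mt-Rnr1 stayed called for Pygo1 (log2 0.95, adjusted p 0.0351, edgeR), 0 members were called for any difference (mt-Rnr1 adjusted p 0.0581), and 0 genes of the nuclear lists were called for Rlim. The numbers do not pair the libraries: the correlations of same-numbered deviations ran from -0.19 to 0.16. Without each library, the exact permutation p ran from 0.009524 to 0.810 for the mitochondrial share, to 0.276 for the rRNA share and to 0.314 for the light-strand share, and from 0.0190 to 0.0667 for the genome 2 share. A single share at the smallest p reaches 0.0571 after adjustment, so that no share passed says nothing about stability. The cause of these shifts was not tested. With 2 libraries per group and few tRNA counts, a difference not called is not shown to be absent.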
